A study of Mus musculus with 10 samples.

Results

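The 10 genes described here mark subsets of dendritic cells, the antigen-presenting cells that prime T cells, or encode growth factors and chemokines that act on them. They were taken by name from the 770 gene probes of a NanoString panel: the ligand and receptor pairs *Flt3l* and *Flt3* and *Xcl1* and *Xcr1*, the transcription factors *Irf4* and *Irf8*, the integrin genes *Itgax* and *Itgae*, and the lectin genes *Cd207* and *Cd209e*. All 10 had a probe, and the table spells one of them CD209e. The panel was read in 10 subcutaneous tumors of YUMMER1.7, an immunogenic mouse melanoma line. Of these tumors, 5 had grown in WT mice and 5 in Siah2 KO mice (Siah2-/-), which lack the ubiquitin ligase Siah2 in all their own cells. The injected cells were the same in both groups, the hosts were male C57BL/6 mice, and no other treatment is labelled. The age of the hosts is given as 5 to 7 weeks for the growth experiment and as 6 to 10 weeks for the study as a whole. The panel has no probe for *Siah2*, so the genotype could not be checked in these data. Tumors were taken on day 11 per the labels, although the figure legend of the paper places this panel at day 10. The text for the whole series names other cells, other mice and day 10. The comparison asks how the immune environment of the tumor changes when the host lacks Siah2. Each tumor was a mixture of melanoma cells and host cells, so that fewer cells of a type and less RNA per cell cannot be told apart.

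FLT3 ligand is a growth factor that drives the development and expansion of dendritic cells from precursors bearing its receptor, FLT3. Conventional dendritic cells fall into a type 1 subset, which depends on IRF8, carries XCR1 and, in tissues, often CD103 (*Itgae*), and presents tumor antigen to CD8+ T cells, and a type 2 subset, which relies more on IRF4. XCL1, made by NK cells and activated CD8+ T cells, is the chemokine that attracts XCR1-bearing dendritic cells. Of the 10 genes, *Xcr1* is the one whose expression is most restricted to a dendritic cell subset. The others are shared: CD11c (*Itgax*) and IRF8 are also found in macrophages and monocytes, CD103 on resident CD8+ T cells, regulatory T cells and mast cells, and IRF4 in activated lymphocytes.

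Promoters are shown for the 3 genes with a promoter sequence whose levels had the smallest adjusted p, because *Irf8* is a textbook target of interferon gamma through GAS elements (gamma-activated sites). The sequences are the 250 bases before the RefSeq start on GRCm38.p6, written 5′ to 3′ on the strand of the gene, with GAS matches (TTCNNNGAA, which reads the same on both strands) in capitals. *Irf8* lies at chr8:120736108-120736357 on the plus strand, *Itgax* at chr7:128129300-128129549 on the plus strand, and *Xcl1* at chr1:164935523-164935772 on the minus strand. The annotated extent of the *Itgax* gene begins at 128129526, so the end of its window lies inside it.
Irf8: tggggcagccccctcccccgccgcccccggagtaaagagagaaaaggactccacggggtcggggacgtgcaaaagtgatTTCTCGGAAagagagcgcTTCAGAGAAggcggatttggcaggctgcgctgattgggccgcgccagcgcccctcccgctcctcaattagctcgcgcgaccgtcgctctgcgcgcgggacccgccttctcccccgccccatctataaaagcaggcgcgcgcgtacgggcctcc
Itgax: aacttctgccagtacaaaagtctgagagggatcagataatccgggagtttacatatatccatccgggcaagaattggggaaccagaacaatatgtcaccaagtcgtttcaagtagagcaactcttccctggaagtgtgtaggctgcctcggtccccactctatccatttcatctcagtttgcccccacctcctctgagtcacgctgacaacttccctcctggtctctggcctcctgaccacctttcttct
Xcl1: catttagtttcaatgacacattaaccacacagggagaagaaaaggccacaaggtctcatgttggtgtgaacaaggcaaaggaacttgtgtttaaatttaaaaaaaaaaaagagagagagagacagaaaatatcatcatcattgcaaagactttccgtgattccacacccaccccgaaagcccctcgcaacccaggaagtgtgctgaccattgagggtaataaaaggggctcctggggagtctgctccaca

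The *Irf8* promoter held 2 GAS matches, TTCTCGGAA from 171 to 163 and TTCAGAGAA from 153 to 145 bases before the start. Of the 10 promoter windows found for 9 of the 10 genes, this was the 1 with a GAS match, and 7.02% of the 32851 windows of the genome hold one. The core of the interferon-stimulated response element (GAAANNGAA, both strands) was matched in the *Flt3l* window, from 9 to 1 bases before the start, and in none of the other windows of these genes. It occurs in 7.13% of all windows, and the matches found did not overlap each other. The *Flt3l* window, on the minus strand, begins at 45136433, and the annotated extent of the gene reaches 45136490. The *Flt3l* match thus lies before the start used for the window but inside that extent. A match is a run of letters and was not tested for binding.

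Levels are given as normalized counts, the number of barcoded molecules of a gene after subtraction of a background constant and scaling of each tumor to 20 reference genes. Per-tumor values follow the order of WT replicates 2, 3, 4, 5 and 6 and of Siah2 KO replicates 1, 2, 3, 5 and 6. Before scaling, the counts of the 770 probes summed to between 382860 and 581637 per tumor. The scaling factor ran from 0.918 to 1.32 in WT and from 1.03 to 1.60 in Siah2 KO tumors, and its part in the differences was not tested beyond the other scalings given below. As a measure of background, the highest of the 8 negative control probes, put on the same scale, was between 2.31 and 15.8 normalized counts per tumor. Of the 10 genes, 8 were above it in all 10 tumors, and 7 had a mean of at least 20 normalized counts. Nothing in the labels says that tumors shared a cage or run, so that p-values measure the spread between these tumors.

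Of the 10 genes, 4 differed between Siah2 KO and WT tumors at an adjusted p under 0.05 (limma on log2 of the normalized count + 1, Benjamini-Hochberg over 770 probes). *Itgax* and *Irf8* were higher in Siah2 KO tumors, and *Itgae* and *Xcl1* were lower. Over all probes the same test called 41.0%, with 31.3% higher and 9.74% lower, so that 4 of 10 is near the share of the whole panel. Scaling each tumor by the median of its endogenous probes (median scaling) lowered the median log2 fold change of all probes by 0.25 and changed the split of calls from 241 higher and 75 lower to 163 higher and 152 lower. The median log2 fold change was 0.04 over the 10 genes and 0.24 over all probes. For 3 of the 10 genes, *Itgax*, *Irf8* and *Xcl1*, the groups did not overlap, which held for 31.6% of all probes.

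**Figure D1:**
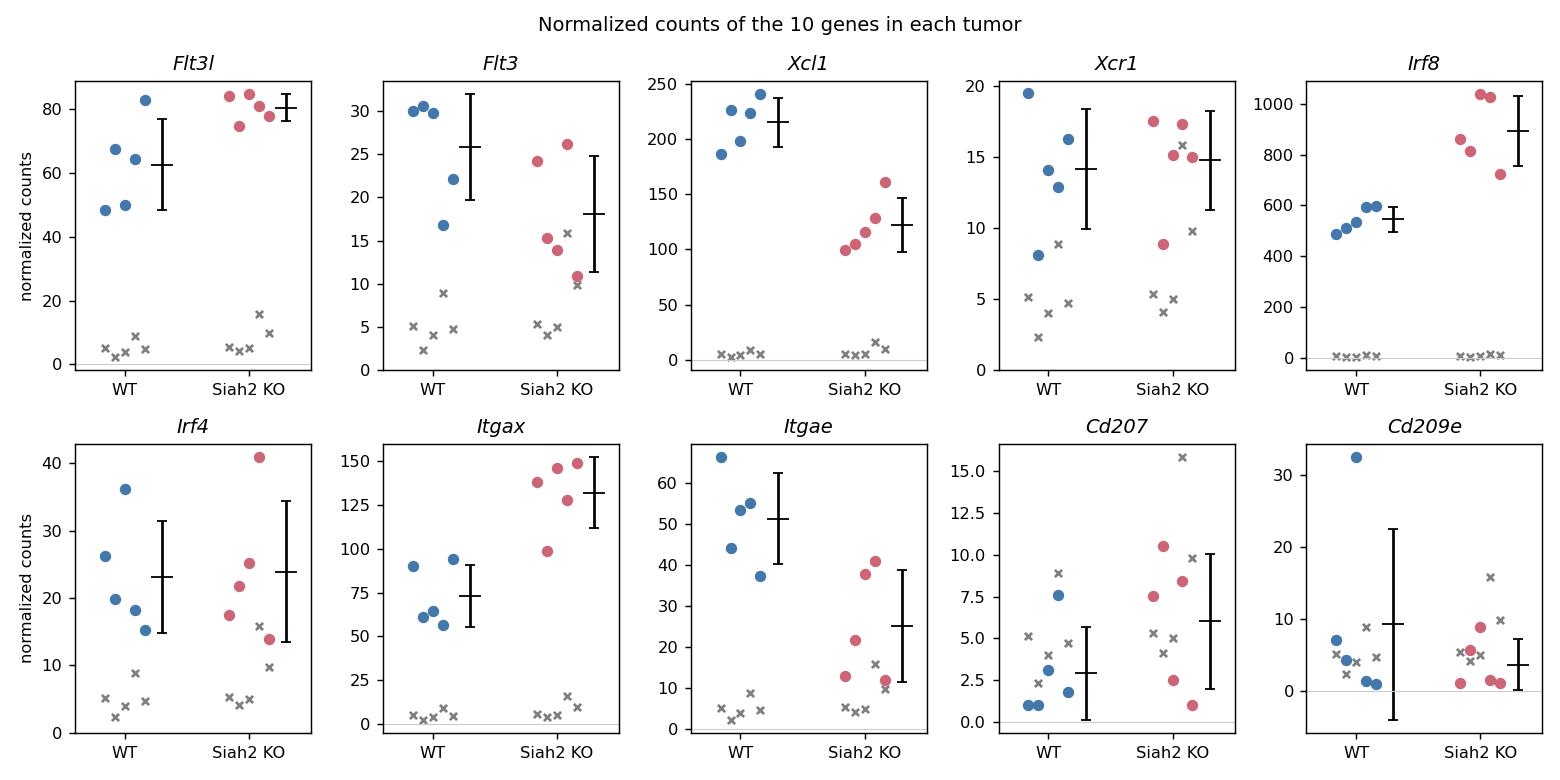
Normalized counts (linear vertical axes) of the 10 genes in 5 WT tumors (blue) and 5 Siah2 KO tumors (red), with the mean ± SD of each group in black and, as grey crosses, the highest negative control probe of each tumor. The groups stand apart for *Xcl1*, *Irf8* and *Itgax*. *Cd207* lies among the crosses, and so does *Cd209e* except in WT replicate 4, at 32.5.

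*Flt3l*, the ligand, was at 48.2, 67.6, 49.9, 64.4 and 82.8 normalized counts in WT tumors and at 84.1, 74.5, 84.6, 80.9 and 77.8 in Siah2 KO tumors. WT replicate 6 lay within the Siah2 KO range, and the other WT tumors lay below it. The means were 80.4 ± 4.26 (SD, n = 5) in Siah2 KO and 62.6 ± 14.2 (SD, n = 5) in WT tumors. The log2 fold change was 0.38 (SE 0.15, adjusted p = 0.058 from limma), short of the threshold. The exact two-sided permutation p for this gene alone was 0.032. The call depended on single choices. Without WT replicate 6 the log2 fold change of *Flt3l* was 0.49 (adjusted p = 0.013), and with median scaling its value was 0.12 (adjusted p = 0.52).

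*Flt3*, the receptor on dendritic cell precursors and conventional dendritic cells, went the other way in value. It was at 30.0, 30.6, 29.7, 16.9 and 22.1 normalized counts in WT tumors and at 24.2, 15.3, 13.9, 26.2 and 10.9 in Siah2 KO tumors. In 3 Siah2 KO tumors, replicates 2, 3 and 6, it was below the lowest WT tumor, while replicates 1 and 5 lay among the WT tumors. The log2 fold change was −0.53 (SE 0.26, 95% confidence interval −1.11 to 0.05, adjusted p = 0.13). With median scaling it was −0.79 (adjusted p = 0.034) and with quantile normalization −0.78 (adjusted p = 0.025). These levels rest on few molecules, between 9.57 and 32.4 counts per tumor before scaling.

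*Xcl1*, the chemokine that attracts XCR1-bearing dendritic cells, was lower in every Siah2 KO tumor than in any WT tumor. It was at 186, 226, 199, 224 and 241 normalized counts in WT tumors and at 99.6, 105, 116, 128 and 161 in Siah2 KO tumors. The means of 122 ± 24.5 in Siah2 KO and 215 ± 22.3 in WT tumors (SD over 5 tumors each) differed by −0.83 in log2 fold change (SE 0.14; limma, adjusted p = 0.0014), with an exact two-sided permutation p of 0.0079, the smallest that 5 against 5 tumors allow. WT levels were 1.78-fold those in Siah2 KO tumors. Ordered from the lowest log2 fold change, *Xcl1* had rank 35 of 770. Scaled to the positive control probes, *Xcl1* was lower by a similar amount, −0.99, at an adjusted p of 0.056.

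Marker genes of CD8+ T cells and NK cells, which can make XCL1, were higher in Siah2 KO tumors. Of 6 genes of CD8+ T cells and NK cells, 5 were higher in Siah2 KO tumors. The summed level of the 6 ran from 977 to 1392 normalized counts in Siah2 KO and from 541 to 801 in WT tumors. Its largest part was *Klrd1*, with means of 666 in Siah2 KO and 407 in WT tumors and a log2 fold change of 0.71 (limma, adjusted p = 0.0025). *Cd8b1*, a chain of the CD8 coreceptor, rose by 1.76 on the log2 scale (adjusted p = 0.0022), and *Cd8a*, the other chain, by 1.13 (adjusted p = 0.0023). The NK cell receptor gene *Ncr1* rose by 0.53 (adjusted p = 0.013). Of the 6 genes, 2 passed the threshold with positive control scaling. The part of these cells in the lower *Xcl1* was not tested.

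*Xcr1*, the receptor of XCL1 and the most subset-restricted of the 10 genes, was low and did not separate the groups. It was at 19.5, 8.15, 14.1, 12.9 and 16.3 normalized counts in WT tumors and at 17.5, 8.92, 15.1, 17.3 and 14.99 in Siah2 KO tumors. The ranges nearly coincided, and both held 1 tumor under 10, WT replicate 3 and Siah2 KO replicate 2. The log2 fold change was 0.07 (SE 0.24; limma, adjusted p = 0.83), with a 95% confidence interval from −0.46 to 0.60, and its sign turned with median, quantile or positive control scaling. Before scaling these were between 5.57 and 20.4 counts, and a change within this interval was not detectable in these tumors.

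*Irf8*, the factor of type 1 dendritic cells whose promoter is shown above, rose. It was at 487, 512, 536, 594 and 597 normalized counts in WT tumors and at 862, 814, 1038, 1027 and 723 in Siah2 KO tumors. The groups did not overlap, and the lowest Siah2 KO tumor, replicate 6, exceeded the highest WT tumor at 723 against 597. The means of 893 ± 137 in Siah2 KO and 545 ± 48.9 in WT tumors (SD over 5 tumors each) differed by 0.70 in log2 fold change (SE 0.12; limma, adjusted p = 0.0015), a 1.63-fold higher level. With positive control scaling it was 0.54 (adjusted p = 0.33), and with quantile normalization 0.29 (adjusted p = 0.0089).

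*Irf4*, the factor tied to type 2 dendritic cells, showed no separation. It was at 26.2, 19.9, 36.1, 18.2 and 15.3 normalized counts in WT tumors and at 17.5, 21.7, 25.2, 41.0 and 13.96 in Siah2 KO tumors. The highest and the lowest of the 10 tumors were both Siah2 KO tumors, replicates 5 and 6. The log2 fold change was 0.01 (SE 0.30, 95% confidence interval −0.65 to 0.68, adjusted p = 0.97), and its sign turned under median, quantile and positive control scaling.

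*Itgax*, which encodes the alpha chain of the CD11c integrin, was higher in every Siah2 KO tumor. It was at 90.4, 60.8, 64.6, 56.5 and 94.4 normalized counts in WT tumors and at 138, 98.5, 146, 128 and 149 in Siah2 KO tumors. Siah2 KO replicate 2 was the lowest of its group and just above WT replicate 6. The means of 132 ± 20.4 in Siah2 KO and 73.3 ± 17.7 in WT tumors (SD over 5 tumors each) differed by 0.86 in log2 fold change (SE 0.18; limma, adjusted p = 0.0038), a 1.81-fold higher level. With positive control scaling it was 0.70 (adjusted p = 0.21). With the replicate number as a block, in 8 tumors, it was 0.80 (adjusted p = 0.051).

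*Itgae*, which encodes the alpha chain of CD103, fell, with the largest log2 fold change in size of the 10 genes. It was at 66.4, 44.2, 53.6, 55.1 and 37.5 normalized counts in WT tumors and at 13.1, 21.7, 37.9, 41.0 and 11.9 in Siah2 KO tumors. Siah2 KO replicates 1, 2 and 6 lay below all WT tumors, whereas replicates 3 and 5 were between WT replicate 6 and WT replicate 3. The means of 25.1 ± 13.6 in Siah2 KO and 51.4 ± 11.1 in WT tumors (SD over 5 tumors each) differed by −1.15 in log2 fold change (SE 0.35; limma, adjusted p = 0.023; exact permutation p = 0.024), in rank 18 from the bottom of all probes. The call was lost without WT replicate 2, at −1.05 (adjusted p = 0.056), and without Siah2 KO replicate 1, at −0.97 (adjusted p = 0.054). With positive control scaling *Itgae* was the 1 gene of the 10 that passed, at −1.30 (adjusted p = 0.0068).

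Genes of other cells that can carry CD103 went in both directions. The CD8+ T cell genes *Cd8a* and *Cd8b1* rose, as given above. The regulatory T cell factor *Foxp3* fell by 0.92 on the log2 scale (limma, adjusted p = 0.018). *Il2ra*, at 0.54 (adjusted p = 0.087), *Ikzf2*, at −0.26 (adjusted p = 0.10), and *Ctla4*, at −0.08 (adjusted p = 0.79), did not pass. The summed level of that list ran from 507 to 808 normalized counts in Siah2 KO and from 476 to 768 in WT tumors. Its largest part was *Il2ra*, with means of 330 in Siah2 KO and 234 in WT tumors, against 29.5 and 56.7 for *Foxp3*. The sum thus says little about *Foxp3*. Of 4 mast cell genes, *Ms4a2*, a chain of the high-affinity IgE receptor, fell by 0.87 (adjusted p = 0.049), and their summed level ran from 297 to 442 in Siah2 KO and from 366 to 764 in WT tumors. The largest part of that sum was *Cma1*, with means of 263 in Siah2 KO and 362 in WT tumors. Within the sum *Tpsab1* varied widely among WT tumors, from 7.61 to 285 normalized counts, against 15.1 to 21.7 in Siah2 KO tumors. The regulatory T cell and mast cell genes were above the floor in every tumor, but *Ms4a2*, at 2.51 to 10.5 normalized counts in Siah2 KO and 11.5 to 20.5 in WT tumors, overlapped the range of the highest negative controls. *Cdh1*, which encodes E-cadherin, the ligand of CD103, fell by 0.71 (adjusted p = 0.035). Neither *Ms4a2* nor *Cdh1* passed with positive control scaling. The part of these cells in the fall of *Itgae* was not tested.

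*Cd207*, the langerin gene of Langerhans cells and some type 1 dendritic cells, and *Cd209e*, a DC-SIGN related lectin gene, were close to background. *Cd207* exceeded the highest negative control probe in 2 of 10 tumors and *Cd209e* in 5 of 10. *Cd207* was at 1, 1, 3.10, 7.61 and 1.83 normalized counts in WT tumors and at 7.55, 10.5, 2.51, 8.45 and 1.03 in Siah2 KO tumors, with 3 tumors at the floor of the scale. *Cd209e* was at 7.06, 4.26, 32.5, 1.32 and 1 in WT tumors and at 1.11, 5.72, 8.83, 1.48 and 1.03 in Siah2 KO tumors, with 5 at the floor. WT replicate 4 alone stood high for *Cd209e*. Neither gene passed the test (adjusted p = 0.27 for *Cd207* and 0.53 for *Cd209e* from limma), and at these levels a difference was not detectable.

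Leukocyte genes as a whole were higher in Siah2 KO tumors, so the 10 genes were also set against them. Of 8 general leukocyte genes 6 rose, among them *Ptprc*, which encodes CD45, by 0.78 on the log2 scale (adjusted p = 0.0020), and the tetraspanin gene *Cd53* by 1.10 (adjusted p = 0.0011). With median scaling 3 of the 8 were called higher and with positive control scaling 1. The median log2 level of the 8 genes in a tumor was higher in Siah2 KO tumors by 0.42, or 1.33-fold. After this median was subtracted in each tumor, 3 of the 10 genes differed at an adjusted p under 0.05, all of them lower. The same test called 37.0% of the 770 probes, 182 of them lower and 103 higher. The subtraction lowers every log2 fold change by the same 0.42, and the median over all probes was then −0.18.

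*Xcl1* was lower relative to leukocyte genes by a log2 difference of −1.24 (adjusted p = 0.00054) and *Itgae* by −1.56 (adjusted p = 0.0023), both without overlap of the groups. *Flt3*, which had not passed on the scale of normalized counts, had a log2 difference of −0.95 (SE 0.24, adjusted p = 0.010). It still passed on this scale when any 1 tumor was left out, with log2 differences between −1.10 and −0.83. *Itgax* and *Irf8* did not pass: their relative log2 differences were 0.44 (95% confidence interval −0.05 to 0.93, adjusted p = 0.14) and 0.29 (0.0039 to 0.57, adjusted p = 0.10). For *Flt3l* the value was −0.03 (95% confidence interval −0.38 to 0.32) and for *Xcr1* −0.35 (−0.93 to 0.24).

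**Figure D2:**
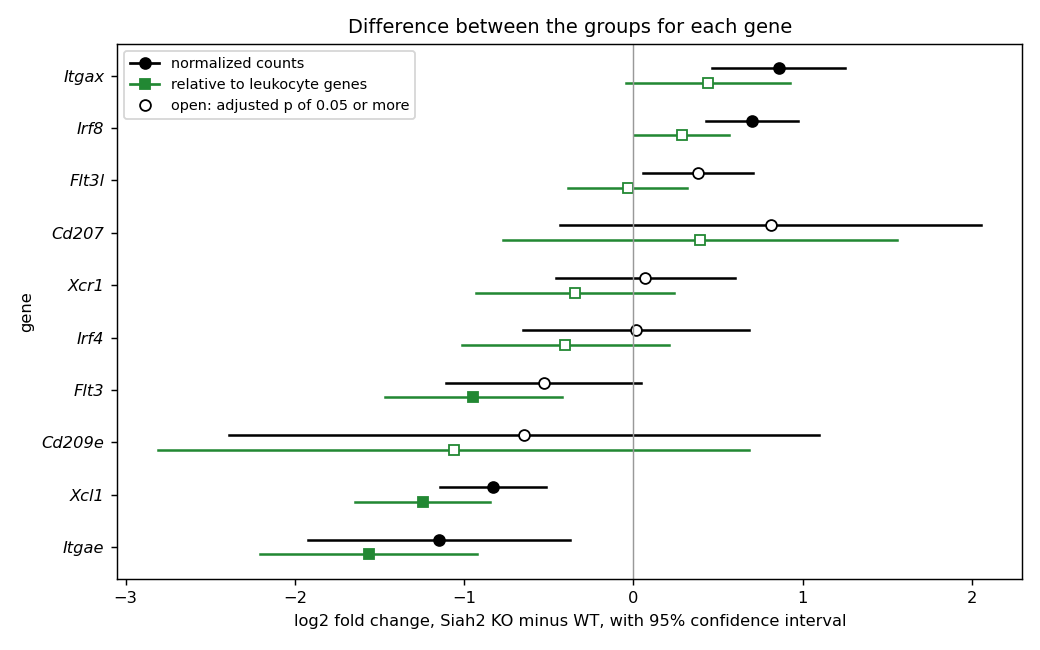
Log2 fold change, Siah2 KO minus WT, of each gene with its 95% confidence interval, on normalized counts (black circles) and relative to the median of 8 leukocyte genes (green squares), with open symbols at an adjusted p of 0.05 or more. *Itgae* and *Xcl1* lie left of 0 on both scales, and *Itgax* and *Irf8* lie to the right with filled symbols on normalized counts only.

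Genes that act or are used together were then compared within tumors, by the difference of their log2 values, in 4 pairs with p adjusted over the 4. *Itgax* and *Itgae* parted most. The log2 value of *Itgax* minus that of *Itgae* was 0.44, 0.45, 0.27, 0.03 and 1.31 in WT tumors and 3.31, 2.13, 1.92, 1.62 and 3.54 in Siah2 KO tumors. The groups did not overlap, and the shift of 2.01 (standard error 0.44) was a 4.01-fold change in the ratio of CD11c to CD103 transcripts (exact permutation p = 0.0079, adjusted p = 0.032). The adjusted p rose to between 0.053 and 0.063 without WT replicate 4, WT replicate 5 or Siah2 KO replicate 1, with shifts of 1.95, 1.89 and 1.80.

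The ligand *Xcl1* fell relative to its receptor *Xcr1* by a log2 difference of −0.90 (SE 0.30, exact permutation p = 0.024, adjusted p = 0.048). The groups overlapped for this pair, because WT replicate 2, at 3.19, lay under Siah2 KO replicates 2 and 6, at 3.42 and 3.34. The call was lost without WT replicates 3, 4 or 5 or Siah2 KO replicates 1 or 3, each left out alone, with shifts between −0.94 and −0.71. For *Flt3l* against *Flt3* the shift was 0.91 (95% confidence interval 0.12 to 1.70, exact permutation p = 0.048, adjusted p = 0.063), and for *Irf8* against *Irf4* it was 0.69 (−0.01 to 1.39, exact permutation p = 0.063, adjusted p = 0.063). These last pairs did not pass the threshold after adjustment, although with a pseudocount of 10 they were at an adjusted p of 0.048 and 0.032. A shift within a tumor shows unequal change of 2 genes and does not tell which of them changed.

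**Figure D3:**
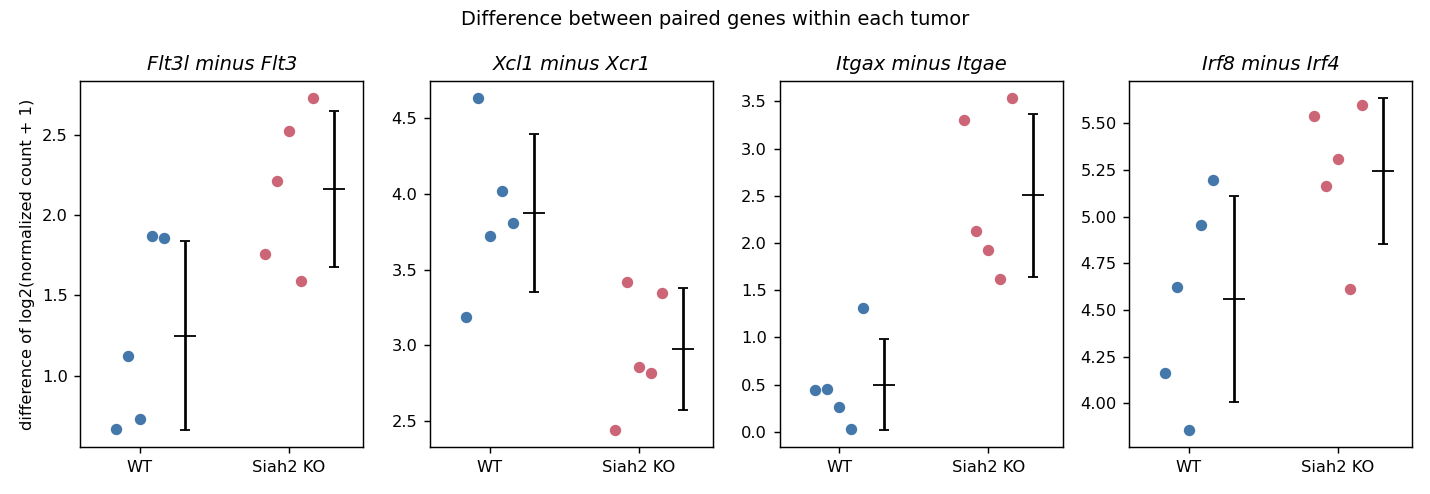
Difference of log2(normalized count + 1) between the 2 genes of each pair in 5 WT tumors (blue) and 5 Siah2 KO tumors (red), with mean ± SD in black and vertical axes that do not start at 0. The groups are apart for *Itgax* minus *Itgae*, from 0.03 to 1.31 in WT and from 1.62 to 3.54 in Siah2 KO tumors, and overlap for the other pairs.

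Other genes of dendritic cell biology on the panel went in both directions. Of 11 genes of maturation and migration, 2 rose and 3 fell in Siah2 KO tumors. The costimulatory ligand gene *Cd86* rose by 0.75 on the log2 scale (adjusted p = 0.0042) and *Cd80*, the related ligand gene, by 0.43 (adjusted p = 0.0042). The lower genes were the chemokine genes *Ccl17* and *Ccl22* and *Il12b*, which encodes the shared chain of IL-12 and IL-23 and fell by 0.86 (adjusted p = 0.017). *Ccr7*, the receptor that guides mature dendritic cells to lymph nodes, had a log2 fold change of −0.65 without passing (adjusted p = 0.12). The median of the list was 0.12, against 0.24 for all probes. That median is the value of *Lamp3*, which was at the floor in 8 tumors, so this comparison rests on a gene at background. With median scaling the median of the list was −0.11, with 1 gene called higher and 5 lower. With positive control scaling 0 genes of the list were called higher, *Cd86* and *Cd80* included, and 2 lower.

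Of 9 genes of MHC class II presentation, 2 rose, *H2-Ab1* by 0.59 (adjusted p = 0.020) and *Cd74*, the invariant chain gene, by 0.46 (adjusted p = 0.049), and 0 of the 9 were called higher with median scaling. *H2-DMb2*, a chain of the peptide exchange factor, fell by 0.72 (adjusted p = 0.0019). None of the 9 passed in either direction with positive control scaling. Among 4 genes associated with plasmacytoid dendritic cells, *Bst2* and *Irf7* rose by 0.76 and 0.65 (adjusted p = 0.0025 and 0.0068). Both are also induced by interferon in many cells, and 0 of the 4 passed with positive control scaling.

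Of 5 interferon regulatory factor genes besides *Irf8* and *Irf4*, 4 rose, with *Irf1*, an early target of interferon gamma, by 0.91 (adjusted p = 0.0053) and *Irf2* by 0.51 (adjusted p = 0.0048). *Irf3*, at 0.07 (adjusted p = 0.48), did not pass, and neither did *Irf4*, described above. The number called was 3 with median scaling, 1 with quantile normalization and 0 with positive control scaling. All 3 other genes of the beta 2 integrin family rose. *Itgb2*, the beta chain that pairs with CD11c, rose by 1.16 (adjusted p = 0.0011), *Itgal* by 0.85 (adjusted p = 0.0022) and *Itgam*, which encodes CD11b of myeloid cells, by 0.76 (adjusted p = 0.0039), and with positive control scaling 1 of the 3 passed.

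Few growth factor and receptor genes related to FLT3 passed the test. Of 10 myeloid growth factor and receptor genes 1 was called, *Csf3r*, the receptor of G-CSF on neutrophils, which rose by 0.95 (adjusted p = 0.0044), and 0 passed with positive control scaling. The kinase receptor genes nearest to *Flt3* in kind, *Csf1r* and *Kit*, had log2 fold changes of −0.02 (adjusted p = 0.95) and 0.52 (adjusted p = 0.058). *Csf2rb*, the shared receptor chain for GM-CSF, was at 0.23 (adjusted p = 0.34).

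Cells that share *Itgax* and *Irf8* with dendritic cells were read through 7 genes of macrophages and monocytes. The lysosomal marker gene *Cd68* rose by 0.87 (adjusted p = 0.0012) and the scavenger receptor gene *Msr1* by 0.92 (adjusted p = 0.0015), and the other 5, *Emr1* (F4/80), *Csf1r*, *Mertk*, *Lyz2* and *Ccr2*, did not pass. With positive control scaling 0 of the 7 passed. The summed level of the 7 genes ran from 18208 to 34530 normalized counts in Siah2 KO and from 17403 to 23263 in WT tumors, and none was at the floor in any tumor. Most of this sum was *Lyz2*, with means of 16060 in Siah2 KO and 14214 in WT tumors. Among 5 lectin and related receptor genes of myeloid cells, *Clec7a*, which encodes dectin-1, rose by 1.33 (adjusted p = 0.0046) and *Mrc1*, the mannose receptor gene, fell by 0.89 (adjusted p = 0.017). Of 5 T cell genes 3 rose, with *Cd3g* and *Cd3d* at 0.93 and 0.71 (adjusted p = 0.0014 and 0.0099), and with positive control scaling 0 of the 5 passed. Of the neutrophil genes *S100a8*, *Csf3r* and *Cxcr2*, *Csf3r* alone passed. *Epcam*, an epithelial and Langerhans cell gene, was at the floor in 4 tumors. The part of these cells in the higher *Itgax* and *Irf8* was not tested.

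**Figure D4:**
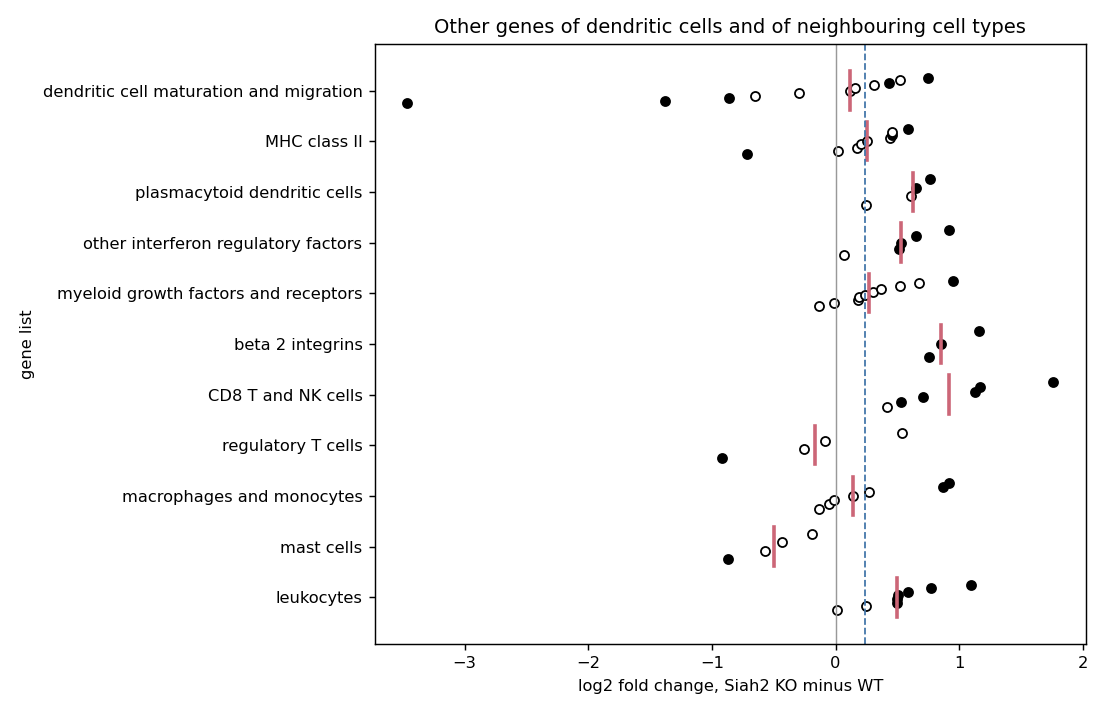
Log2 fold change, Siah2 KO minus WT, of the genes of 11 lists, each circle a gene, filled at an adjusted p under 0.05, with the median of each list in red and the median of all 770 probes, 0.24, as a dashed line. The 3 beta 2 integrin genes lie right of the dashed line, and the dendritic cell maturation genes spread to both sides, down to *Ccl17* at −3.46. *Ccl17* was at the floor in 2 tumors and ran from 1.03 to 22.7 normalized counts in Siah2 KO tumors, so the size of its change is uncertain.

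As a description of which genes varied with *Flt3*, *Xcl1* and *Itgae* among tumors of the same group, log2 values were centred on the group means and compared over the 10 tumors with 601 probes of a mean of at least 20 normalized counts. All tumors share the scaling, and the closest of so many genes is high by selection. Nearest to *Xcl1* was the chemokine receptor gene *Cx3cr1* (Pearson's r = 0.91, Spearman's rho = 0.92, and r = 0.78 without the 2 most distant tumors), then *Tgfbr1* and *Sh2d1b1* with r of 0.87 and 0.85. Between the groups *Cx3cr1* was lower in Siah2 KO tumors by a log2 fold change of −2.34. *Tgfbr1* was at −0.25 and *Sh2d1b1* at 0.65, without passing (limma, adjusted p = 0.16 and 0.066). Nearest to *Itgae* was *Ciita*, the master regulator of MHC class II genes (r = 0.90, rho = 0.89, and r = 0.80 without the 2 most distant tumors), then *Stat5b* and *Fcgr3* with r of 0.88 and 0.87. While *Itgae* fell, these neighbours had positive log2 fold changes of 0.21, 0.24 and 0.43 (limma, adjusted p = 0.46, 0.10 and 0.047). Nearest to *Flt3* were *Tigit*, *Stat4* and *Amica1*, with r of 0.84, 0.82 and 0.81, and without the 2 most distant tumors the last of these was at 0.53. Their log2 fold changes were 0.97, 0.33 and 0.18 (limma, adjusted p = 0.0028, 0.16 and 0.57), opposite in sign to that of *Flt3*.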

How the data were processed

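RNA of 10 tumors, 100 ng each, was hybridized to a NanoString panel and counted. What the authors deposited is a normalized signal per probe, made with nSolver after quality control of samples, with 20 reference genes as internal controls. In the values the geometric mean of these genes is equal in all tumors, and a background constant had been subtracted with a floor at 1, a step not described in the sources used here, so they are not raw counts. Each tumor's factor was recovered from its equal steps, on which 100% of values under 150 lay within 0.1 of a step. The 770 gene probes of the 784 rows were taken as log2(value + 1) and a moderated two-sided test of Siah2 KO against WT was run (limma 3.58.1, lmFit and eBayes; R 4.3.3), Benjamini-Hochberg adjusted over all probes. A fold change on this scale understates that of low genes. Exact permutation tests used all 252 divisions of the tumors, in Python 3.11.15. The fit was tested on simulated data.

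The 10 genes, the gene lists, the motifs and the tests were chosen with earlier results of these data known. Named are the 10 genes, at most the 2 genes of smallest p per list with ligands, partners and related receptors of the 10, and the 3 probes closest to *Flt3*, *Xcl1* and *Itgae*. Outside this rule *Ccl17*, *Ccl22*, *Il12b*, *Ccr7*, *Lamp3*, *Cd74*, *Ncr1*, *Klrd1*, *Itgam*, *Irf3*, *Tpsab1* and the marker genes of a list given in full were chosen after their values were seen. Promoter sequences are from RefSeq, GRCm38.p6, and 9 of 10 symbols matched, without *Itgae*. Alternatives were other scalings, a pseudocount of 10, a floor and a filter at 20, other tests, a replicate block and leaving out each tumor.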

Additional observations from a re-analysis of the deposited data

Results flagged for a closer look

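*Cd209e* in WT replicate 4, at 32.5 normalized counts, stood far above the other WT tumors, the highest of which was at 7.06, with a gap of 0.81 of the whole range of the group. On the log2 scale the same tumor was not apart. *Xcr1* in Siah2 KO replicate 2 was the lowest of its group, at 3.31 on the log2 scale (8.92 normalized counts), with a gap of 0.76 of the range. In 5 tumors a gap above 0.71 is called, on either scale, and chance gives such a call in about 1 of 20 groups, the number of groups looked at here on each scale. Both genes are low, and without Siah2 KO replicate 2 the log2 fold change of *Xcr1* was 0.23, still short of the threshold.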

How the results depend on the processing

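Of the values and counts of genes recomputed under another setting, 351 stayed as they were (values in direction and side of the threshold, counts of genes within 1.5 times), 16 values lost the call, 12 gained one, 16 turned in sign, and 2 counts moved further. With median scaling and with quantile normalization, *Flt3* passed (−0.79 and −0.78), while *Xcr1* (−0.18 and −0.19) and *Irf4* (−0.24 and −0.19) turned in sign. Scaled to the positive controls, which leaves out the scaling to the reference genes, *Xcl1* (−0.99), *Itgax* (0.70) and *Irf8* (0.54) no longer passed. On that scale *Xcr1* (−0.075) and *Irf4* (−0.14) turned, 1 of the 10 genes was called, and 95 probes in place of 316. *Flt3l* passed with a pseudocount of 10 (0.34) or a filter at a mean of 20 (0.38), a filter that leaves no value for *Xcr1*, *Cd207* and *Cd209e*. The pair differences of *Flt3l* and *Flt3* (0.70) and of *Irf8* and *Irf4* (0.68) passed with a pseudocount of 10, and the latter with a floor of 20 (0.65).

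The deviations of same-numbered tumors correlated at 0.035, 0.050, 0.17 and 0.35. These were not compared with tumors of different numbers, so whether the replicate numbers pair the tumors was not tested. With the number as a block in 8 tumors, 2 of the 10 genes and 235 probes were called, *Itgae* (−0.95) and *Itgax* (0.80) missed the threshold and *Cd209e* (0.19) turned. In the same 8 tumors without the block, a setting chosen after seeing the data, *Itgae* (−0.95) missed it, *Cd209e* (0.19) turned and 232 probes were called.

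When each tumor was left out in turn, the log2 fold changes ranged from 0.30 to 0.49 for *Flt3l*, from −1.36 to −0.94 for *Itgae*, from −0.10 to 0.23 for *Xcr1* and from −0.20 to 0.19 for *Irf4*, and from −0.11 to 0.072 for *Flt3l* relative to leukocyte genes, where it turned without WT replicate 6 and without Siah2 KO replicate 5 (0.055). The pair differences ranged from 0.77 to 1.07 for *Flt3l* and *Flt3*, from −1.07 to −0.71 for *Xcl1* and *Xcr1*, from 1.75 to 2.23 for *Itgax* and *Itgae* and from 0.51 to 0.85 for *Irf8* and *Irf4*. Between 3 and 5 of the 10 genes were called. The cause of these changes was not tested. Before scaling, the lowest tumor had 9.57 counts of *Flt3*, 13.5 of *Irf4*, 5.57 of *Xcr1* and 1, the floor, of *Cd207* and *Cd209e*; the share of counting error in their spread was not tested.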
